A study of Mus musculus with 14 samples.

Results

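A set of 10 detoxification genes was followed through lungs of wild type mice and of mice lacking CD151 or CD9. They were 9 glutathione transferase genes (Gsta3, Gsta4, Gstm1, Gstm2, Gstp1, Gstt1, Gstt3, Gsto1 and Mgst1) and Ephx1, the microsomal epoxide hydrolase. They were found by name: a probe set, a group of probes that measures 1 transcript, was taken when the platform annotation gave it exactly 1 gene symbol and that symbol was on the list. All 10 genes were found, with 16 probe sets, among 18193 genes and 45101 probe sets on the array. All 10 passed the filter on low signal through their brightest probe set, and 12985 genes were tested in all. The list was put together with earlier results of these data known, and Gstt3 was placed on it for its opposite directions in the knockouts, so its group differences are described without a test.

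Total RNA came from whole lung of C57BL/6 mice aged 20 weeks in each of 3 genotype groups, and was run on Affymetrix arrays, 1 array per sample, from 500 ng of RNA. Wild type gave 4 samples (numbers 1, 3, 4 and 5), CD151KO gave 5 and CD9KO gave 5. The labels name no treatment and no other allele. How the genes were disrupted is not described in the labels. The series design text gives 4, 5 and 5 mice for the groups, but the labels do not match each array to a mouse. The p-values therefore speak of the spread among samples, part of which may be technical. The tetraspanins CD151 and CD9 sit in the plasma membrane and gather integrins and other partners there.

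Glutathione transferases join the tripeptide glutathione to reactive electrophiles, which makes these compounds easier to export. The cytosolic enzymes are grouped in classes named by Greek letters (alpha, mu, pi, theta, omega), and Mgst1 belongs to a separate family of membrane proteins. Epoxide hydrolase adds water to epoxides, many of them made by cytochrome P450 enzymes, and so works beside the transferases. In the lung, airway club cells are rich in such enzymes, and several of the genes are known targets of the transcription factor Nrf2, which binds antioxidant response elements.

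Windows of 300 bases around the transcription start, from RefSeq (build GRCm38.p6, 250 bases before the start and 50 after), were matched for 9 of the 10 genes; Gsta4 was not in the table used here. The 4 windows below belong to the genes whose signal differed most between the groups: the theta class neighbours Gstt3 and Gstt1, which were higher in CD151KO than in CD9KO, and Gsta3 and Ephx1, which were lower. Capitals mark a match on either strand to TGACNNNGC, the core of the antioxidant response element, to TTATGTAA, the D-box bound by the clock-controlled factors Dbp, Tef and Hlf, or to the E-box CACGTG. These 3 motifs do not overlap in the windows shown.
Gstt3 (chr10:75781373-75781672, - strand): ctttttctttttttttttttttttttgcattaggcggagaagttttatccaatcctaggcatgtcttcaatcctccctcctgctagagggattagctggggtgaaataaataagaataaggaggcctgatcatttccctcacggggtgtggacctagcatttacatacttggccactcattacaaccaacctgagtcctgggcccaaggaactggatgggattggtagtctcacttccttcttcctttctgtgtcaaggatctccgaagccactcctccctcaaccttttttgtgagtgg
Gstt1 (chr10:75797682-75797981, - strand): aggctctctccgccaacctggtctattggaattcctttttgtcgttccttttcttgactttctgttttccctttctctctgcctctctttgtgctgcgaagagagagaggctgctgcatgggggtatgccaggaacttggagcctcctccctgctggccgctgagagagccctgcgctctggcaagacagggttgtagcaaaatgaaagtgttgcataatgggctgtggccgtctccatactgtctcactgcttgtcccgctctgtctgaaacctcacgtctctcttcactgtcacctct
Gsta3 (chr1:21240335-21240634, + strand): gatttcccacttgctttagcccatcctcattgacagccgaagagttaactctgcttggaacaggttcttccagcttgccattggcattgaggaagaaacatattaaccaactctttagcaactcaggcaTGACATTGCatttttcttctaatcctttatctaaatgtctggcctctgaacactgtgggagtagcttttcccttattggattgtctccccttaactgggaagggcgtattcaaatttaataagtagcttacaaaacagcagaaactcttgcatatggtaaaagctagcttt
Ephx1 (chr1:181017520-181017819, - strand): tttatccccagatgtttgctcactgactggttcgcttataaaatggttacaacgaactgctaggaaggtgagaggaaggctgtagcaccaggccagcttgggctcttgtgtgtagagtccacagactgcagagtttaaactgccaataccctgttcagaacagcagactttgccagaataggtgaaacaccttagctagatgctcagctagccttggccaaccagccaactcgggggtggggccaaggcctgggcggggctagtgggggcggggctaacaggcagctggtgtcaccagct
Gstt3, Gstm1 and Mgst1 had 2 windows each, of which the most upstream was used. Among the 9 genes, matches lay in the windows of Gsta3, starting 121 bases before the transcription start, and of Mgst1, starting 56 bases before it, both to TGACNNNGC. The second window of Mgst1 held none of the 3 motifs. Over all 32851 RefSeq promoter windows of this length, 12.4% held TGACNNNGC, 0.938% held TTATGTAA and 7.15% held CACGTG. A match is a run of letters and not a measured binding site.

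Values are normalized signals on a linear scale, on which each probe set has its own response, so levels are not compared between genes. The 14 arrays had medians from 84.1 to 86.2 and a lowest pairwise correlation of 0.9906 between log2 values. The targeted genes were low in their own knockouts: Cd151 lay at 1027 to 1072 in CD151KO and 4991 to 5832 in wild type, and Cd9 at 614 to 749 in CD9KO and 7998 to 8163 in wild type. The lung markers Sftpc (28308 to 29212), Scgb1a1 (28414 to 29667) and Ager (21087 to 23419) were bright on every array. The first principal component, with 37.3% of the variance, held every CD9KO array (7.24 to 13.3) above every wild type (-18.6 to 1.60) and CD151KO array (-17.3 to 2.50). Within wild type and within CD151KO it rose at every step of array number, so that number 1 was lowest and number 5 highest. In CD9KO it rose from number 1 to number 4 and was 9.85 at number 5. The bacterial control BioB, an RNA added for hybridization, read 314 to 354 in wild type, 363 to 425 in CD151KO and 361 to 444 in CD9KO. The part of these array differences in the results was not tested. In whole tissue, fewer cells of a type and less RNA per cell cannot be told apart.

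Gstt3, a theta class transferase, had its highest signal in CD151KO and its lowest in CD9KO. Wild type arrays read 593, 585, 527 and 509. CD151KO arrays read 705, 687, 670, 625 and 660, and CD9KO arrays 476, 484, 468, 451 and 428. Every CD151KO array lay above every wild type array, and every CD9KO array lay below every wild type array. Wild type averaged 553 ± 41.8 (SD, n = 4), CD151KO 669 ± 30.1 (n = 5) and CD9KO 462 ± 22.2 (n = 5). On the log2(signal + 16) scale, on which all differences and folds here are given, Gstt3 was 0.27 higher in CD151KO than in wild type (SE 0.05), 0.25 lower in CD9KO (log2 -0.25, SE 0.05), and 0.52 higher in CD151KO than in CD9KO (SE 0.05), a ratio of 1.44 between the knockouts. The first 2 of these share the wild type arrays. Over 25 alternative fits, 14 of them without 1 array, the differences lay within 0.23 to 0.30, -0.29 to -0.22 and 0.48 to 0.55. Gstt3 was chosen for its directions in these same arrays, so the SEs and ranges describe its spread and are no support for a difference. Gstt3 also followed the first principal component, with r = -0.78 over the 14 arrays and -0.76 after the group means were removed. Like that component, its signal shifted with array number. It fell at every step in wild type, from number 1 to number 4 in CD151KO and from number 2 to number 5 in CD9KO. The reason was not tested.

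**Figure D1:**
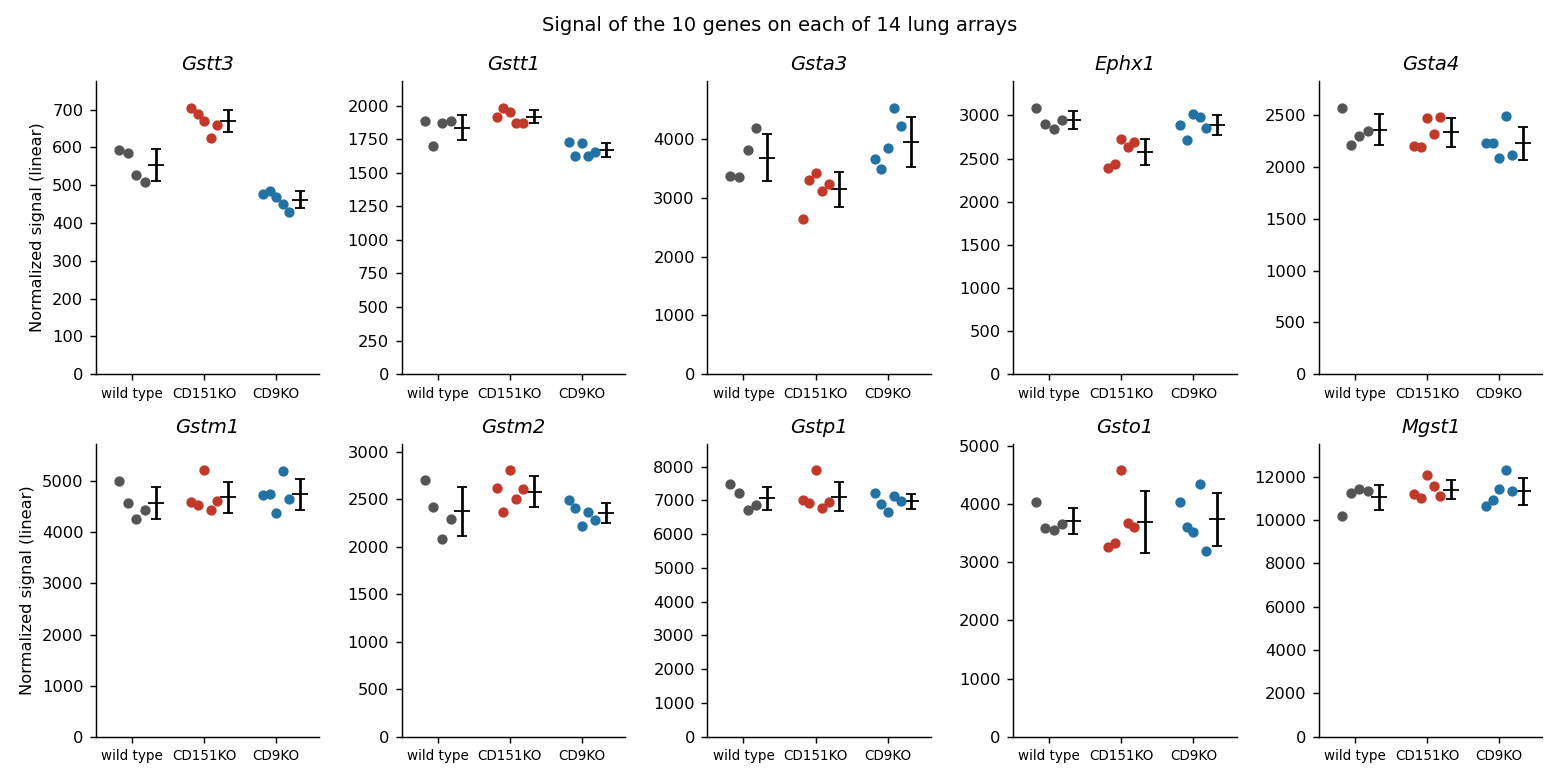
Normalized signal (linear, from 0) of the 10 genes, 1 point per array in order of array number, with the group mean and SD as a black bar beside the points, for wild type (4), CD151KO (5) and CD9KO (5). Gstt3 separates into 3 groups that do not overlap, Gstt1 and Gsta3 do not overlap between CD151KO and CD9KO, Ephx1 does not overlap between CD151KO and wild type, and the other 6 genes overlap in every pair of groups.

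The patterns most like that of Gstt3 over the 14 arrays were those of Naxe, a repair enzyme for damaged NADPH (Pearson r = 0.96), Itgb6, an integrin subunit of epithelium (r = 0.96), the interleukin receptor gene Il18r1 (r = 0.95), Hdc, which makes histamine (r = 0.95), and Cpm, a membrane carboxypeptidase (r = 0.95). The most opposed were Fibin (r = -0.96), the cytochrome P450 gene Cyp2b10 (r = -0.93), Edil3 (r = -0.93), Rbms2 (r = -0.93) and Timp3, an inhibitor of matrix proteases (r = -0.92). These 14 points share 3 genotypes, and no p is given. With the group means removed, r ranged from 0.68 for Il18r1 to 0.83 for Cpm among the alike, and from -0.79 for Cyp2b10 to -0.46 for Rbms2 among the opposed. The genes were picked by r over these same arrays, so their r within groups is partly fixed by that choice. Il18r1 read 1549 to 1683 in wild type, 1879 to 2216 in CD151KO and 1370 to 1580 in CD9KO, so its CD151KO arrays stood above the rest while wild type and CD9KO met. Cyp2b10 read 4670 to 5653, 4034 to 5110 and 5820 to 6719 in the same order.

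Gstt1, the other theta class gene on the list and the next tested gene along chromosome 10 from Gstt3, was higher in CD151KO than in CD9KO. Its arrays read 1889, 1700, 1869 and 1889 in wild type, 1916, 1986, 1950, 1873 and 1870 in CD151KO, and 1727, 1625, 1723, 1627 and 1657 in CD9KO. Every CD151KO array lay above every CD9KO array, and wild type overlapped with both, its number 3 lying among the CD9KO arrays. The means were 1837 ± 91.6 (SD, n = 4), 1919 ± 50.02 (n = 5) and 1672 ± 50.2 (n = 5). Gstt1 was 1.15-fold higher in CD151KO than in CD9KO (log2 0.20, SE 0.04, limma adjusted p = 0.0051), and this call held when any 1 array was left out (adjusted p = 0.0029 to 0.016 over all alternatives). In CD9KO against wild type it missed the threshold (log2 -0.13, SE 0.04, adjusted p = 0.052); it passed without wild type number 3 (log2 -0.17, adjusted p = 0.042). In CD151KO against wild type it differed by log2 0.06 (SE 0.04, adjusted p = 0.573). With the group means removed, Gstt1 and Gstt3 showed r = -0.06 over the 14 arrays.

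The genes beside them on chromosome 10 were set against these values. Gstt2, the third theta gene there, read 325 to 449 in wild type, 328 to 375 in CD151KO and 279 to 326 in CD9KO, and was lower in CD9KO than in wild type (log2 -0.28, SE 0.08, adjusted p = 0.047); it was named here after its values were seen. Of the fits without 1 array, those without wild type number 5 or CD151KO number 1 kept that call, and the other 12 gave an adjusted p of 0.052 to 0.107. On the other side of Gstt3, Ddt had log2 differences of 0.07, -0.03 and 0.10 for CD151KO against wild type, CD9KO against wild type and CD151KO against CD9KO, and Cabin1 0.04, 0.04 and 0.0003. Beyond Gstt2, Mif had -0.05, -0.11 and 0.05. None of Ddt, Cabin1 and Mif passed in any of the 3 comparisons, with adjusted p of 0.182 or higher. No gene of the 10 lies on chromosome 7 with Cd151, and Mgst1 shares chromosome 6 with Cd9.

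Gsta3, an alpha class transferase, was lower in CD151KO than in CD9KO. Its arrays read 3369, 3357, 3813 and 4188 in wild type, 2647, 3294, 3424, 3109 and 3234 in CD151KO, and 3668, 3483, 3843, 4533 and 4227 in CD9KO. The knockouts did not overlap, and wild type overlapped with each. The means were 3682 ± 399 (SD, n = 4), 3142 ± 299 (n = 5) and 3951 ± 426 (n = 5). Gsta3 was 1.26-fold lower in CD151KO than in CD9KO (log2 -0.33, SE 0.08, adjusted p = 0.024). The call ended without CD151KO number 1 (log2 -0.27, adjusted p = 0.059), CD9KO number 4 (-0.28, 0.059) or CD9KO number 5 (-0.30, 0.067). Against wild type the differences were log2 -0.23 in CD151KO (SE 0.09, adjusted p = 0.327) and 0.10 in CD9KO (SE 0.09, adjusted p = 0.492). Gsta3 followed the first principal component with r = 0.72 over all arrays and 0.67 within groups.

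The second probe set of Gsta3 gave the same order. Wild type read 382 ± 39.5 (SD, n = 4), CD151KO 314 ± 52.0 (n = 5) and CD9KO 448 ± 42.6 (n = 5), with knockout ranges of 230 to 361 and 402 to 514 that did not overlap. Its log2 difference between the knockouts was -0.50 (SE 0.10). Both probe sets put CD151KO number 1 lowest of all 14 arrays.

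Ephx1, which codes for the microsomal epoxide hydrolase, was lower in CD151KO than in CD9KO. Its arrays read 3090, 2898, 2848 and 2951 in wild type, 2393, 2438, 2721, 2638 and 2690 in CD151KO, and 2892, 2718, 3019, 2980 and 2850 in CD9KO. Every CD151KO array lay below every wild type array, and CD9KO number 2, at 2718, met the highest CD151KO array, at 2721. The means were 2947 ± 104 (SD, n = 4), 2576 ± 151 (n = 5) and 2892 ± 119 (n = 5). Ephx1 was 1.12-fold lower in CD151KO than in CD9KO (log2 -0.17, SE 0.04, adjusted p = 0.023). That call ended without CD151KO number 1 (log2 -0.14, adjusted p = 0.062) or number 2 (-0.15, 0.059), or without CD9KO number 3 (-0.15, 0.058) or number 4 (-0.16, 0.056). Against wild type, Ephx1 differed by log2 -0.19 in CD151KO, where it did not pass (SE 0.04, adjusted p = 0.062, 0.057 to 0.195 over the alternatives), and by -0.03 in CD9KO (SE 0.04, adjusted p = 0.730).

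**Figure D2:**
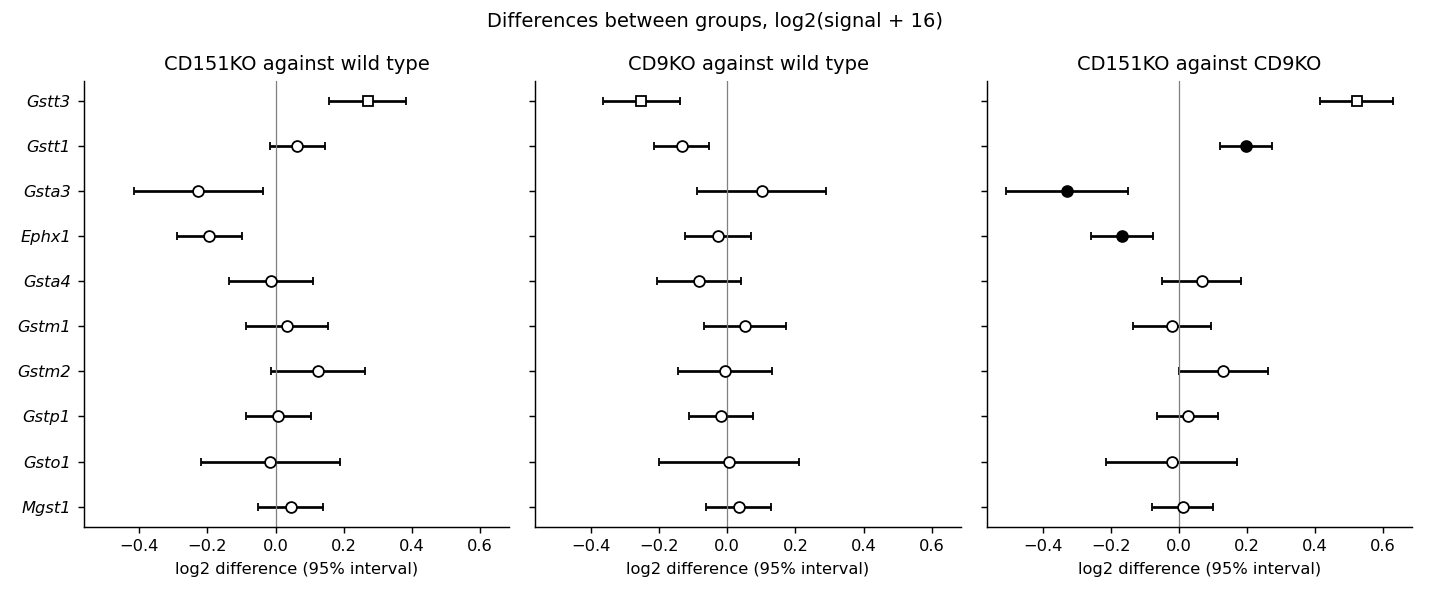
Log2 differences (log2 of signal + 16) of the 10 genes in the 3 comparisons, with 95% intervals from the linear model over 14 arrays. Filled circles passed at an adjusted p under 0.05, open circles did not, and Gstt3 is drawn as an open square because it was chosen for its difference and carries no test. The intervals of Gstt3 describe spread only. Between the knockouts Gstt1 lies at 0.20, Gsta3 at -0.33 and Ephx1 at -0.17, and the intervals of the other circles apart from Gstm2 include 0.

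Read over the 9 genes other than Gstt3, 0 passed in CD151KO against wild type, where 0.778% of all 12985 genes passed, and 2 of the 9 had an unadjusted p under 0.05 (limma), against 11.1% of all genes. Against wild type, 0 of 9 passed in CD9KO beside a background of 5.46%, and 1 had an unadjusted p under 0.05, against 25.4%. Between the knockouts 3 of 9 passed, 1 higher and 2 lower in CD151KO, beside 10.1% of all genes, 6.01% higher and 4.14% lower, and 4 had an unadjusted p under 0.05, against 27.6%. These counts describe a list chosen with results known. The median log2 difference of the 9 was 0.01, -0.01 and 0.01 in the 3 comparisons, and that of all genes 0.008, 0.004 and 0.002. Array ranges were apart for Ephx1 in CD151KO against wild type (4.54% of all genes), for 0 of the 9 in CD9KO against wild type (11.8%), and for Gstt1 and Gsta3 between the knockouts (10.6%).

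The remaining genes gave no call in any comparison, and their intervals bound the differences. Gsta4, an alpha class enzyme known for clearing the lipid peroxidation product 4-hydroxynonenal, read 2218 to 2574 in wild type, 2195 to 2483 in CD151KO and 2085 to 2491 in CD9KO. Its log2 difference was -0.01 in CD151KO (95% interval -0.14 to 0.11) and -0.08 in CD9KO (-0.20 to 0.04). The 3 groups overlapped over most of their ranges.

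The mu class genes Gstm1 and Gstm2 stand next to each other on chromosome 3 and are close in sequence, so their probe sets may share signal. Gstm1 read 4262 to 5009 in wild type, 4437 to 5210 in CD151KO and 4377 to 5202 in CD9KO, with log2 differences of 0.03 (95% interval -0.09 to 0.15) and 0.05 (-0.07 to 0.17) against wild type. Its other 3 probe sets had log2 differences from -0.02 to 0.06 against wild type. Gstm2 arrays read 2699, 2418, 2078 and 2292 in wild type, 2620, 2368, 2802, 2499 and 2602 in CD151KO, and 2491, 2404, 2213, 2365 and 2285 in CD9KO. The groups overlapped, and Gstm2 differed by log2 0.12 in CD151KO against wild type (SE 0.06, adjusted p = 0.509) and by 0.13 between the knockouts (SE 0.06, adjusted p = 0.179).

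Gstp1, the pi class enzyme, had the narrowest intervals of the cytosolic genes outside the theta class. It read 6726 to 7479 in wild type, 6769 to 7887 in CD151KO and 6660 to 7231 in CD9KO. The log2 differences were 0.008 (95% interval -0.09 to 0.10) and -0.02 (-0.11 to 0.08) against wild type, and 0.03 (-0.06 to 0.12) between the knockouts.

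Gsto1, an omega class enzyme that reduces dehydroascorbate and thiol adducts, varied most within the knockouts. It read 3561 to 4030 in wild type, 3262 to 4579 in CD151KO and 3185 to 4348 in CD9KO, with coefficients of variation of 5.90%, 14.2% and 12.2%. Its log2 differences against wild type were -0.02 (95% interval -0.22 to 0.19) and 0.006 (-0.20 to 0.21), so the difference of -0.19 seen for Ephx1 lies inside both. A second probe set gave 0.10 and 0.15 (SE 0.10 each), and the sign in CD151KO differed between the pair.

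Mgst1, the membrane-bound enzyme of the endoplasmic reticulum and outer mitochondrial membrane, read 10198 to 11429 in wild type, 11034 to 12089 in CD151KO and 10626 to 12288 in CD9KO. Its log2 differences against wild type were 0.04 (95% interval -0.05 to 0.14) and 0.03 (-0.06 to 0.13). The other probe set of Mgst1 read 10.9 to 14.9 on all arrays, below the filter at a signal of 53.3, and gives no value for the gene.

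**Figure D3:**
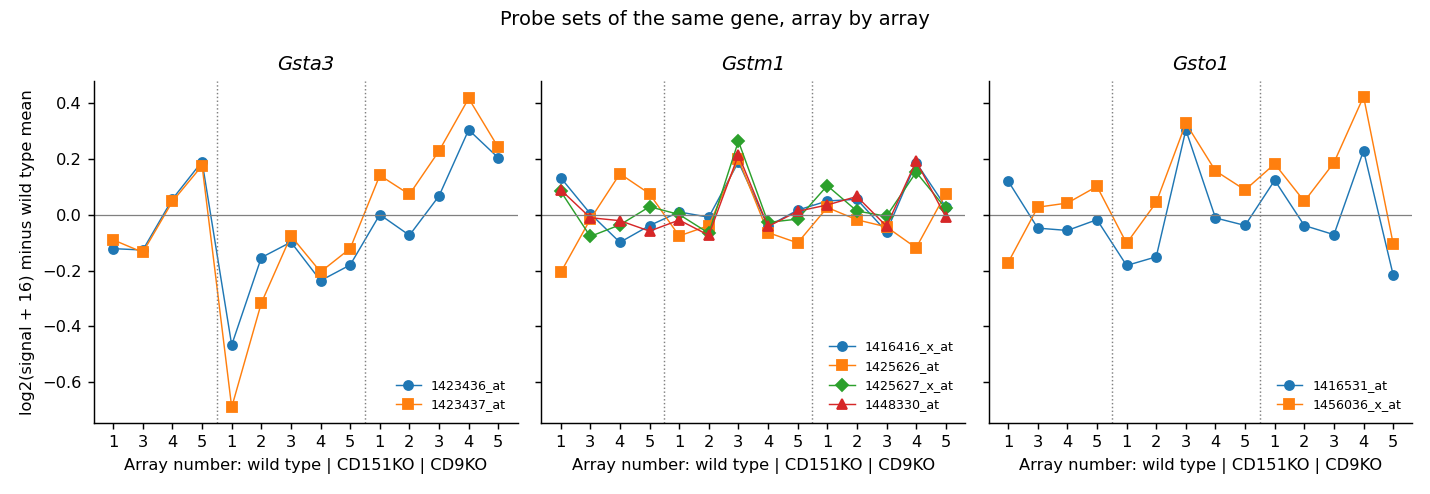
Probe sets of Gsta3 (2), Gstm1 (4) and Gsto1 (2), as log2(signal + 16) minus the wild type mean of the same probe set, along the 14 arrays; dotted lines part wild type, CD151KO and CD9KO, and lines only join the points of a probe set. The pair for Gsta3 is lowest on CD151KO number 1, 3 of the 4 for Gstm1 keep together on most arrays, and the pair for Gsto1 peaks on CD151KO number 3 and CD9KO number 4.

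Part of the variation was shared between genes inside a group. CD151KO number 3 had the highest signal of its group for 7 of the 10 genes, wild type number 1 for 8 and CD9KO number 4 for 5. With group means removed, the 10 pairs among Gsta4, Gstm1, Gstm2, Gstp1 and Gsto1 had r from 0.53 to 0.89 (median 0.77, 14 arrays), the highest for Gstm1 with Gstp1. The 35 other pairs ran from -0.74 to 0.64 (median 0.11), the lowest for Gsta3 with Gstt3. These 5 genes were singled out after their values were seen, and all pairs share arrays and hybridizations, so r is a description of these arrays.

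Of 20 other glutathione transferases listed, 15 were tested. In CD9KO 3 of them were lower than in wild type, beside 337 of all 12985 genes called lower and 5.46% called either way. They were Gstt2 as above, Mgst2, a membrane enzyme that can make leukotriene C4, and Gstz1, which acts in tyrosine breakdown. Between the knockouts 3 of 15 were higher in CD151KO, namely Mgst2, Gstz1 and Gstk1, a transferase of mitochondria and peroxisomes. Of all genes 6.01% were called higher there and 10.1% either way. In CD151KO against wild type 0 of 15 passed (0.778% of all genes), with 2 at an unadjusted p under 0.05 by limma (11.1% of all genes). By the same measure there were 5 of 15 in CD9KO against wild type (25.4% of all genes) and 7 of 15 between the knockouts (27.6%). The median log2 differences of the 15 were 0.04 in CD151KO and -0.12 in CD9KO against wild type, and 0.15 between the knockouts, where all genes had medians of 0.008, 0.004 and 0.002.

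Mgst2 read 400 to 452 in wild type, 389 to 526 in CD151KO and 272 to 364 in CD9KO. Every CD9KO array lay below every array of the other groups. It was lower by log2 -0.36 in CD9KO than in wild type (SE 0.09, adjusted p = 0.035) and higher by 0.38 in CD151KO than in CD9KO (SE 0.08, adjusted p = 0.013). The first call was lost on leaving out wild type number 1 (adjusted p = 0.092), 3 (0.081) or 4 (0.054), or CD9KO number 3 (0.067) or 5 (0.083). Gstz1 read 492 to 621, 579 to 622 and 458 to 489 in wild type, CD151KO and CD9KO, with CD9KO again below both. It differed by log2 -0.21 in CD9KO against wild type (SE 0.06, adjusted p = 0.047) and by 0.34 between the knockouts (SE 0.05, adjusted p = 0.0028). The former held without wild type number 4 or 5 or CD151KO number 1, and the other 11 fits without 1 array gave an adjusted p of 0.053 to 0.124. Gstk1 was 0.17 higher in CD151KO than in CD9KO (SE 0.04, adjusted p = 0.015). The calls of Mgst2, Gstz1 and Gstk1 between the knockouts held when any 1 array was left out.

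**Figure D4:**
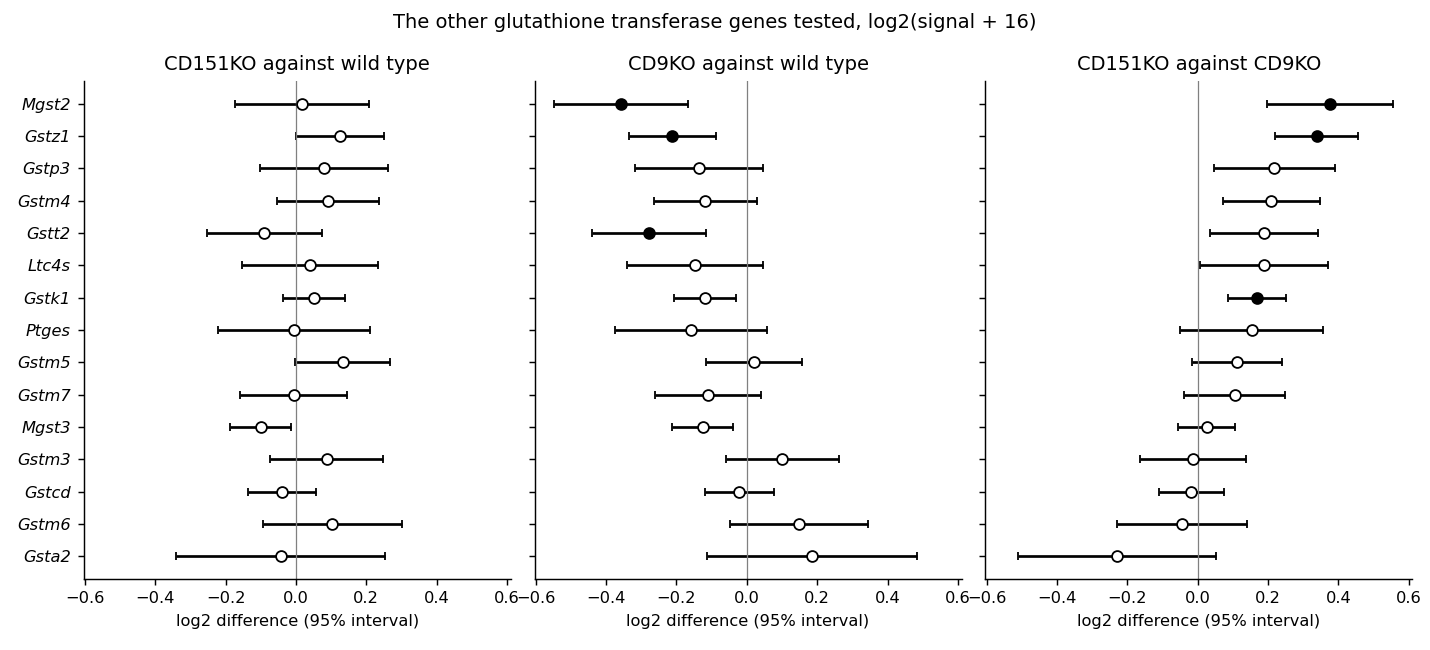
Log2 differences (log2 of signal + 16) of the 15 other glutathione transferase genes tested, with 95% intervals, in the 3 comparisons; filled circles passed at an adjusted p under 0.05. Mgst2, Gstz1 and Gstt2 lie below 0 in CD9KO against wild type, and Mgst2, Gstz1 and Gstk1 above 0 in CD151KO against CD9KO.

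Among all 12985 genes, 372 passed as higher in CD9KO than in wild type, and 5.46% passed either way. Of 28 tested genes that make, recycle or use glutathione, 2 were higher in CD9KO than in wild type. They were the plasma glutathione peroxidase Gpx3 (log2 0.36, SE 0.08, adjusted p = 0.025) and Anpep, an aminopeptidase that acts on glutathione fragments (0.23, adjusted p = 0.034). Between the knockouts 6.01% of all genes were called higher in CD151KO and 10.1% either way. Of the 28, 4 were higher in CD151KO. They were Gpx8, a peroxidase of the endoplasmic reticulum (0.27, SE 0.04, adjusted p = 0.0033), the glutaredoxins Glrx (0.18, adjusted p = 0.030) and Glrx2 (0.24, adjusted p = 0.028), and Glo1, which clears methylglyoxal with glutathione (0.13, adjusted p = 0.039). In CD151KO against wild type 0 passed and 11 of 28 had an unadjusted p under 0.05 by limma (11.1% of all genes), Dpep1 among them (0.32, SE 0.08, adjusted p = 0.078). By the same measure there were 9 of 28 in CD9KO against wild type (25.4% of all genes) and 14 of 28 between the knockouts (27.6%). The list medians were 0.09, 0.03 and 0.06 in the 3 comparisons. Of the 3 other epoxide hydrolases and the leukotriene hydrolase Lta4h, 0 of 4 passed in any comparison, with 0, 2 and 1 at an unadjusted p under 0.05 and list medians of 0.04, -0.08 and 0.10. In the same order, 11.1%, 25.4% and 27.6% of all genes had an unadjusted p under 0.05 (limma). Among these 4 the lowest adjusted p was that of Lta4h between the knockouts (0.16, SE 0.05, adjusted p = 0.053). It passed in 7 of 25 alternative fits, with an adjusted p of 0.0057 at the lowest, while the mean of all its probe sets gave a difference of 0.046 (adjusted p = 0.425). Ephx3 had log2 -0.31 in CD9KO against wild type (SE 0.10, adjusted p = 0.084), and Ephx2 0.15 (SE 0.08, adjusted p = 0.251).

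A list of 18 genes, Nrf2 and targets outside the transferases and the glutathione list, gave 0 calls in each comparison. At an unadjusted p under 0.05 (limma) were 0, 3 and 6 for CD151KO against wild type, CD9KO against wild type and CD151KO against CD9KO. Of all genes, 0.778%, 5.46% and 10.1% passed, and 11.1%, 25.4% and 27.6% had an unadjusted p under 0.05 (limma). The list medians were -0.006, 0.07 and -0.07. Txn1, the cytosolic thioredoxin, differed by 0.10 between the knockouts (SE 0.03, adjusted p = 0.062), the small Maf factor gene Maff by -0.45 (SE 0.15, adjusted p = 0.066) and Osgin1 by -0.23 (SE 0.09, adjusted p = 0.097). The 3 genes counted in CD9KO against wild type were higher in CD9KO. They were Srxn1 (0.37, SE 0.16, adjusted p = 0.154), Osgin1 (0.29, SE 0.09, adjusted p = 0.064) and Keap1 (0.11, SE 0.04, adjusted p = 0.0995). Gclc and Gclm were counted in the glutathione list and not here. In CD9KO against wild type they lay at 0.49 (SE 0.14, adjusted p = 0.056) and 0.22 (SE 0.09, adjusted p = 0.150).

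Among 22 phase I enzymes, which add or expose the reactive groups on which transferases and hydrolases act, 4 passed between the knockouts, beside 10.1% of all genes. Cyp2b10 (log2 -0.41, SE 0.07, adjusted p = 0.0028), Cyp4b1 (-0.14, SE 0.03, adjusted p = 0.0070) and the monooxygenase Fmo2 (-0.30, adjusted p = 0.017) were lower in CD151KO than in CD9KO, and the alcohol dehydrogenase Adh1 was higher (0.26, adjusted p = 0.032). Cyp4b1 arrays read 9757 to 10427 in wild type, 9084 to 9479 in CD151KO and 10064 to 10769 in CD9KO, the CD151KO arrays below all others. Cyp2e1 was higher in CD9KO than in wild type (0.56, SE 0.13, adjusted p = 0.026), the 1 call of 22 there, beside 5.46% of all genes. In CD151KO against wild type 0 of 22 passed (5 at an unadjusted p under 0.05 by limma, beside 11.1% of all genes). By that measure there were 6 in CD9KO against wild type (25.4% of all genes) and 9 between the knockouts (27.6%). The list medians were 0.01, 0.07 and 0.006. Of 7 sulfo-, methyl- and acetyltransferases, 1 was lower in CD151KO than in CD9KO, the sulfotransferase Sult1a1 (-0.37, SE 0.11, adjusted p = 0.040), beside 4.14% of all genes. Against wild type 0 passed. At an unadjusted p under 0.05 (limma) were 1 in CD151KO and 2 in CD9KO, beside 11.1% and 25.4% of all genes. Between the knockouts there were 2, beside 27.6%. The medians of the 7 were -0.006, 0.11 and -0.01. Sult1d1 had 0.32 in each knockout against wild type (adjusted p = 0.261 and 0.093), and Nat2 -0.14 between the knockouts (adjusted p = 0.138).

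Of 11 tested xenobiotic sensors and PAR bZIP factors, 3 were lower in CD151KO than in wild type, Dbp (log2 -0.86, SE 0.16, adjusted p = 0.024), Hlf (-0.64, SE 0.09, adjusted p = 0.0049) and Tef (-0.45, SE 0.07, adjusted p = 0.0062). These are the 3 PAR bZIP factors, known to drive detoxification genes in liver. In that comparison 0.778% of all genes passed, and 42 of all 12985 genes passed as lower. An unadjusted p under 0.05 (limma) was found for 6 of the 11, beside 11.1% of all genes. The 6 included Nfil3, a bZIP repressor that binds the same D-box, named here after its values were seen, which was at 81.8 ± 12.8 in CD151KO (SD, n = 5) against 59.6 ± 15.1 for wild type (n = 4) and did not pass (log2 0.39, SE 0.12, adjusted p = 0.209). The same 3 PAR bZIP factors and Arnt, the partner of the aryl hydrocarbon receptor, were lower in CD151KO than in CD9KO (-0.50, -0.57, -0.49 and -0.16, adjusted p = 0.047, 0.0018, 0.00092 and 0.016). Between the knockouts 10.1% of all genes passed, and 4.14% of all genes passed as lower in CD151KO. There 4 of the 11 had an unadjusted p under 0.05 (limma), beside 27.6% of all genes. Tef arrays read 2721 to 3028 in wild type, 1776 to 2374 in CD151KO and 2957 to 3104 in CD9KO. In CD9KO against wild type 0 of 11 passed (5.46% of all genes), with 3 at an unadjusted p under 0.05 by limma (25.4% of all genes). The list medians were 0.03, 0.04 and 0.04 in the 3 comparisons. The lower level of these factors was part of the results known when the list was made.

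Of the 25 calls in these lists, 11 held when any 1 array was left out. They were Gstk1, Gstz1, Mgst2, Gpx8, Cyp2b10, Cyp4b1, Arnt, Hlf and Tef between the knockouts, and Hlf and Tef in CD151KO against wild type. For the other calls in the lists of glutathione, phase I, sulfo- and PAR bZIP genes, the number of arrays whose omission ended the call, out of 14, and the range of adjusted p were as follows. In CD9KO against wild type they were 5 for Gpx3 (0.011 to 0.059), 7 for Anpep (0.033 to 0.072) and 5 for Cyp2e1 (0.0094 to 0.062). Between the knockouts they were 5 for Glrx (0.018 to 0.067), 4 for Glrx2 (0.017 to 0.077), 8 for Glo1 (0.015 to 0.087), 7 for Adh1 (0.019 to 0.084), 7 for Sult1a1 (0.017 to 0.088) and 9 for Dbp (0.0091 to 0.107). Fmo2 between the knockouts lost its call without CD9KO number 5 (0.0502), and Dbp in CD151KO against wild type without wild type number 3 (0.053) or CD151KO number 5 (0.057). With only the 2 groups compared in the fit, Tef (0.053) and Dbp (0.067) did not pass in CD151KO against wild type, nor Gstt2 (0.074) and Gstz1 (0.086) in CD9KO against wild type. Without both number 1 arrays, 5 of the 6 calls in CD9KO against wild type ended, namely Gpx3 (0.0504), Anpep (0.065), Gstt2 (0.080), Mgst2 (0.088) and Gstz1 (0.113).

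Markers of the cells that could carry these genes differed between groups to varying degrees. The summed signal of 8 club cell markers was 83631 to 86029 in wild type, 87692 to 93169 in CD151KO and 75889 to 88396 in CD9KO. Of the 8, 4 passed as higher in CD151KO than in CD9KO, beside 6.01% of all genes. In the same group order, means differed most for Bpifa1 (8341, 10967 and 5777) and Scgb3a1 (7602, 8983 and 5730). They differed little for Scgb1a1 (28967, 29121 and 29193) and Cyp2f2 (19799, 20069 and 19723). Scgb1a1 held the highest signal of the series (29667), and 29192 was its wild type high and its median in each knockout. Its signal may lie too near the top of the scale to show a difference, and it is part of the club cell sums. Between the knockouts Gstt1 was higher and Gsta3 and Ephx1 were lower in CD151KO, and any link to the markers was not tested. The sums of 8 ciliated cell markers were 7501 to 8122, 7225 to 8833 and 6816 to 7721, those of 9 alveolar type 2 markers 100527 to 108310, 105908 to 110801 and 100047 to 104743, and those of 7 alveolar type 1 markers 54192 to 56475, 51417 to 56715 and 53692 to 56275. Cardiac muscle markers (6 genes) summed to 6580 to 7834, 6053 to 10634 and 8378 to 11858, and adipose markers (4 genes) to 2453 to 3146, 3171 to 4983 and 2887 to 5552. Fibroblast markers (8 genes) summed to 29690 to 30748, 29628 to 31732 and 28859 to 32982, mesothelial markers (5) to 1707 to 2168, 2267 to 2562 and 1171 to 2516, alveolar macrophage markers (7) to 9644 to 11866, 9362 to 14473 and 10830 to 12623, and erythroid markers (3) to 1198 to 1454, 893 to 1881 and 1208 to 2951. Among all genes 0.778%, 5.46% and 10.1% passed in the 3 comparisons that follow. In CD151KO against wild type the markers that passed were 1 of 9 for alveolar type 2 cells, higher, and 0 for every other list. For CD9KO against wild type they were 1 of 8 for fibroblasts, 1 of 6 for cardiac muscle and 1 of 3 tested for adipose tissue, all higher, and 0 for the rest. Between the knockouts, beside the club cell markers, they were 2 of 9 for alveolar type 2 cells (higher in CD151KO), 1 of 7 for alveolar type 1 cells and 1 of 6 for cardiac muscle (lower), and 2 of 8 for fibroblasts, 1 each way, and 0 for the rest. Hepatocyte markers were low and summed to 334 to 454, 322 to 586 and 319 to 348 over 7 genes, with Alb at 54.0 to 234 and Apoa1 at 49.0 to 73.5 over the 14 arrays. The part of cell composition in the values of the 10 genes was not tested.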

How the data were processed

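RNA of 14 mouse lung samples was measured on 1-colour Affymetrix arrays. The values deposited are intensities, 1 normalized linear signal per probe set and array, per the labels. Affymetrix Expression Console and MAS5 are named in the submitters' processing notes without version or role; the sources used here do not give how values were summarised and normalized. GEO's platform annotation gave 34958 probe sets 1 symbol, 932 several and 9211 none.

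A gene was its probe set with 1 symbol and the highest mean. Genes with a mean log2 signal under the 40th percentile of probe sets other than controls (signal 53.3) were left out, which removed 5208 of 18193 genes. Values were taken as log2(signal + 16), and a linear model with 3 group means was fitted to 14 arrays (11 residual degrees of freedom) with limma 3.58.1 in R 4.3.3, with eBayes and a mean-variance trend. Adjusted p-values are limma's, two-sided, by Benjamini-Hochberg over all 12985 genes, with calls under 0.05. Tested on simulated data for CD151KO against wild type, the fit found 30.7% of changes of log2 0.2, 86.3% of those of 0.4 and 97.9% of those of 0.8. False calls were 5.91% of all calls made there. The simulated noise was independent between genes and arrays, while the arrays here share variation, so these shares may not hold for them. The number of arrays limits the precision. Figures used matplotlib 3.10.9 in Python 3.11.15.

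The members and lists were chosen with earlier results of these data known. Genes named from a list were the 3 with the smallest unadjusted p over the comparisons. Further names (Gstt2, Anpep, Glrx, Glrx2, Glo1, Fmo2, Adh1, Arnt, Nfil3, Gclc, Gclm, Srxn1 and Keap1) were chosen after their values were seen. Genes most like or opposed to Gstt3 were the 5 highest and 5 lowest Pearson correlations. Alternatives were other pseudocounts (1 and 64), quantile normalization, median centring, a filter at the 60th percentile or none, averaging a gene's probe sets, fits of the 2 groups compared, no trend, a replicate block and leaving out each array; leaving out both number 1 arrays was added after seeing the data.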

Additional observations from a re-analysis of the deposited data

Results flagged for a closer look

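In 4 of 30 sets of signals (10 genes in 3 groups) a single array stood apart from its group, with a gap to the nearest other array, as a share of the group's range, above Dixon's 95% limit for the group's size. Chance gives about 1 in 20 such gaps. CD151KO number 3 was highest for Gstm1, at 5210 (share 0.765), and for Gstp1, at 7887 (share 0.787), in a group whose other arrays reached 4619 and 7007. Wild type number 3 was lowest for Gstt1, at 1700 (share 0.893), and wild type number 1 was lowest for Mgst1, at 10198 (share 0.857).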

How the results depend on the processing

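Over 25 alternative fits, 14 of them leaving out 1 array, the count of the 9 genes called in CD151KO against wild type stayed at 0. In CD9KO against wild type it was 0, and 1 (Gstt1) with a filter at the 60th percentile or the mean of all probe sets, and 0 to 1 on leaving out arrays. Between the knockouts it was 3 in each of the other 11 fits and 1 to 3 on leaving out arrays. The differences that passed kept their direction throughout. Signs changed among differences that did not pass, and their direction is not a result. All genes called in CD151KO against wild type numbered 101, with 39 when only the 2 groups compared were fitted, 45 without both number 1 arrays, and 24 to 98 on leaving out single arrays. In CD9KO against wild type they numbered 709, with 406 without the same number 1 arrays of wild type and CD151KO and 158 to 866 on leaving out single arrays, and between the knockouts 1317, with 681 to 1938. Calls in the lists also ended with median centring (Gstt2, Gstz1, Glo1, Dbp between the knockouts), no filter or no variance trend (Gstt2, Gstz1, Dbp between the knockouts) and the mean of all probe sets (Fmo2, Dbp between the knockouts). Of the list genes named in the text other than Nfil3, Gclc, Gclm, Srxn1 and Keap1, some that did not pass in a comparison did so in part of the 25 fits. In CD151KO against wild type these were Gpx8 in 3 fits and Dpep1 in 1. In CD9KO against wild type they were Cyp2b10 in 9, Dpep1 in 5, Adh1 and Arnt in 3 each, Ephx3 in 2, and Osgin1, Sult1a1 and Sult1d1 in 1 each. Between the knockouts they were Lta4h in 7, Gpx3, Maff, Txn1 and Gstt2 in 3 each, and Osgin1 and Cyp2e1 in 1 each. The causes were not tested. Replicate numbers were not used as pairs: of 13 same-numbered pairs across groups, 7 had a correlation of deviations over 0.1 (range -0.14 to 0.59). Their median was 0.10, and that of pairs with unlike numbers was -0.01. The main fit has no term for array number, and what the numbers stand for was not tested. With the replicate block the calls among the 9 genes numbered 0, 0 and 3, and all genes called 109, 1594 and 1829 in the 3 comparisons. Probe sets ending in x may bind related transcripts, so Gstm1 and Gsto1 values may hold signal of relatives.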
